A study of Homo sapiens with 9 samples.

Results

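The genes described here are 10 known brakes on the RAS and mitogen-activated protein kinase (MAPK) pathways: the MAPK phosphatases DUSP1, DUSP2, DUSP4, DUSP5, DUSP6, DUSP10 and DUSP16, and the RAS inhibitors SPRY1, SPRED1 and SPRED2. They were chosen by name, from the rows of the raw count table whose Ensembl identifiers map to these symbols, and all 10 were found among 60234 identifiers. RNA was sequenced from Ramos cells, a Burkitt lymphoma B cell line negative for Epstein-Barr virus, untreated (0 h) or exposed to CHIR99021, which inhibits the kinase GSK-3, at 3 µM during 3 h or 6 h. Each time had 3 biological replicates, numbered 1, 2 and 3 at 0 h, 5, 6 and 7 at 3 h, and 9, 10 and 11 at 6 h. All samples are of this 1 cell line, and cells cultured for 3 h or 6 h without the inhibitor are not among them, so the effect of the inhibitor and that of time in culture cannot be told apart.

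MAPK cascades relay signals from RAS and from stress sensors to the kinases ERK, JNK and p38, which are switched on by phosphorylation of a threonine and a tyrosine. Dual-specificity phosphatases remove both phosphates, and many of their genes are themselves induced by MAPK activity, which makes them feedback inhibitors. Sprouty and SPRED proteins act further upstream: Sprouty proteins restrain signalling from receptors to RAS, and SPRED proteins bring neurofibromin, a protein that switches RAS off, to the membrane. In B cells these pathways act downstream of the B cell receptor.

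Reads counted in genes numbered 46359911 to 52880876 in each library, and 15847 genes passed the filter on low counts and were tested. Untreated replicate 3 stood apart from the other untreated libraries, with a chi-square per degree of freedom of 29.9 and 26.7 against them, compared with 1.70 between those 2. To a smaller degree, 3 h replicate 6 (8.07 and 7.77, compared with 2.59) and 6 h replicate 10 (12.8 and 10.3, compared with 5.70) also differed from their groups. The 8 B cell markers summed to 2762 to 3004 CPM (read counts scaled to the size of the library) in every library, whereas 7 T and NK cell markers summed to at most 0.179 CPM, 7 myeloid markers to at most 0.208 CPM and 8 epithelial and fibroblast markers to at most 0.0219 CPM. AXIN2, a target of beta-catenin, which GSK-3 marks for degradation, was 2.01-fold higher at 3 h and 3.33-fold higher at 6 h than at 0 h (edgeR adjusted p = 2.07e-06 and 3.91e-09). In these bulk samples, fewer cells with a transcript and less of it per cell cannot be told apart.

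Most of the transcripts of these 10 genes in Ramos cells came from 2 of them. Per kilobase of exon, SPRED2 held 65.0% of the summed level of the 10 genes at 0 h, 40.5% at 3 h and 47.0% at 6 h, and DUSP2 held 27.6%, 55.7% and 49.6% at those times. SPRED2 led in untreated cells, at 21.8 ± 1.1 CPM per kilobase against 9.26 ± 0.86 for DUSP2 (SD, n = 3). The order was turned round at 3 h, with 20.4 ± 1.2 CPM per kilobase for DUSP2 and 14.8 ± 0.46 for SPRED2, and the libraries of these genes did not overlap. At 6 h the ranges overlapped, at 15.4 to 17.7 for DUSP2 and 15.4 to 15.7 for SPRED2, and the order there turned with the length used, since dividing by the longest transcript gave 18.8 for DUSP2 and 19.6 for SPRED2.

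The other 8 genes were low. At 0 h the level per kilobase was 1.07 CPM for DUSP10, 0.860 for DUSP1, 0.334 for SPRY1 and 0.126 for DUSP16, with no overlap between neighbours in this order. DUSP6 at 0.0347 and DUSP5 at 0.0295 CPM per kilobase overlapped, and SPRED1 stood at 0.0130. By this measure SPRED2 lay above 85.1% of the genes tested at 0 h, DUSP2 above 68.5% and DUSP10 above 28.8%. DUSP4, a nuclear phosphatase of ERK and JNK, had 1 read in untreated replicate 3 and 0 in each of the other 8 libraries. The floor that a count of 0 leaves was 0.0567 to 0.0647 CPM by library. This floor was taken over the reads in genes without TMM factors, so it is not on the scale of the other CPM.

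**Figure D1:**
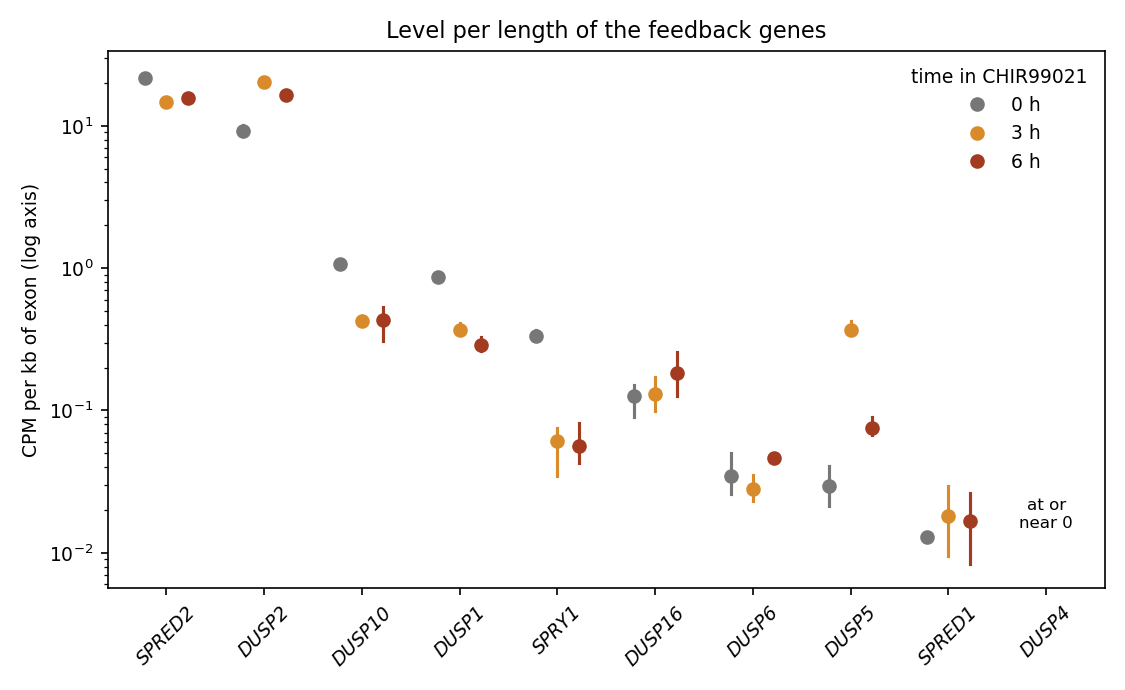
Mean CPM per kilobase of exon (log axis) of the 10 feedback genes at 0 h, 3 h and 6 h in CHIR99021, with vertical lines from the lowest to the highest of 3 libraries. SPRED2 and DUSP2 lie between 9.26 and 21.8 at every time, DUSP10 is the next at 0.428 to 1.07, and DUSP4, at or near 0, cannot be drawn on this axis.

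The change in CHIR99021 divided the genes. At 3 h against 0 h, DUSP2 and DUSP5 were higher, and DUSP1, DUSP10, SPRY1 and SPRED2 were lower. DUSP16 did not pass the test, and DUSP4, DUSP6 and SPRED1 had too few reads to be tested. Across all genes tested, 32.8% were called higher and 33.5% lower in this comparison, 66.3% in all (edgeR quasi-likelihood test, Benjamini-Hochberg adjusted p under 0.05), so being called was common. The same 2 genes were higher and the same 4 lower at 6 h against 0 h, where 35.7% of all genes were called higher and 35% lower, 70.8% in all. Over the 3 times together, DUSP1, DUSP2, DUSP5, DUSP10, SPRY1 and SPRED2 passed and DUSP16 did not (edgeR adjusted p = 0.173), as 77.7% of all genes passed. DUSP5 reached the minimum count in all libraries at 3 h alone, so it entered the test through the group in which it was high. SPRY1 reached it in all libraries at 0 h alone, but also in 3 h replicates 5 and 7 and 6 h replicate 11. The libraries of the compared groups did not overlap for any of these 6 genes in either comparison, which was also so for 70.2% of all genes at 3 h and 71.7% at 6 h. Both comparisons use the same untreated libraries, and without untreated replicate 3 the counts of feedback genes were also 2 higher and 4 lower at both times.

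**Figure D2:**
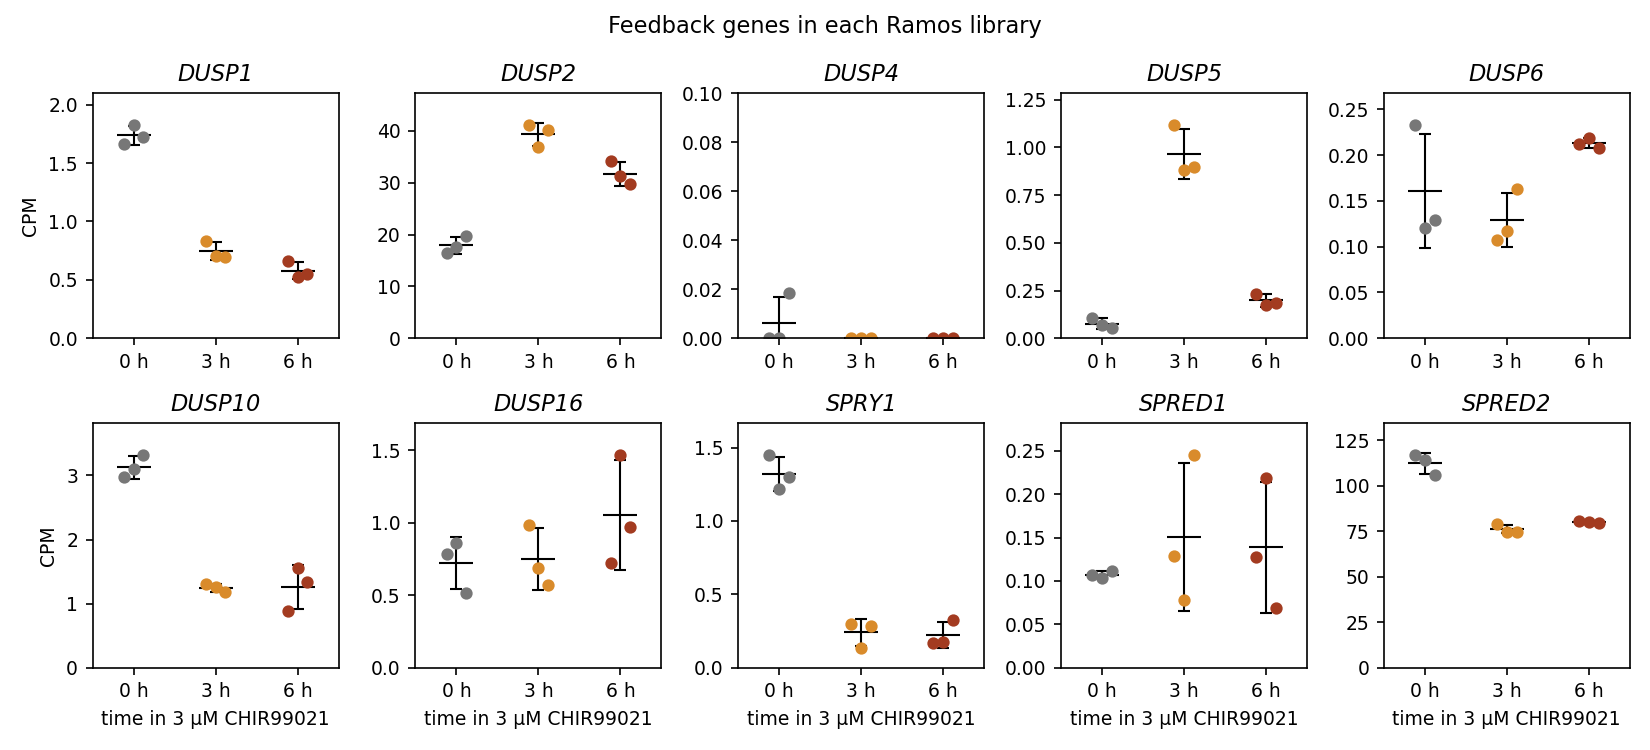
CPM of each feedback gene in every library at 0 h, 3 h and 6 h (points), with the mean (bar) and SD of 3 libraries, on a linear axis of its own for each gene. DUSP2 and DUSP5 are highest at 3 h, at 39.3 and 0.965 CPM on average, and DUSP1, DUSP10, SPRY1 and SPRED2 are highest at 0 h, at 1.74, 3.13, 1.32 and 112 CPM.

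Among the nuclear phosphatases, DUSP2 had the highest level per kilobase at each time. DUSP2 (ENSG00000158050, chromosome 2), a phosphatase of ERK and p38 known from blood cells, had 16.4, 17.5 and 19.7 CPM at 0 h, 41.0, 36.8 and 40.1 CPM at 3 h, and 34.2, 31.2 and 29.7 CPM at 6 h. Every treated library lay above every untreated one, and the 3 h libraries lay above the 6 h libraries. The log2 fold change was 1.14 at 3 h (SE 0.0757, edgeR adjusted p = 1.29e-08) and 0.83 at 6 h (SE 0.0761, adjusted p = 2.78e-07), which is 2.20-fold and 1.77-fold. Between 6 h and 3 h it fell by 0.31 on the log2 scale (SE 0.074, edgeR adjusted p = 0.00395), though not past a minimum fold of 1.2 (adjusted p = 0.351). Of the difference from 0 h that was present at 3 h, 64.4% remained at 6 h.

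DUSP5 had the largest fold change of the 7 tested genes at 3 h, and most of it was gone by 6 h. It entered the test through the 3 h group alone, in which it was high. Its rank and test values are therefore not independent of that selection, and its untreated counts were near the floor. DUSP5 (ENSG00000138166, chromosome 10), which dephosphorylates ERK in the nucleus and not the other MAPKs, had 6, 4 and 3 reads at 0 h, 52, 45 and 44 at 3 h, and 11, 8 and 8 at 6 h. On the normalised scale these were 0.107, 0.0688 and 0.0556 CPM at 0 h, 1.12, 0.881 and 0.898 CPM at 3 h, and 0.234, 0.175 and 0.185 CPM at 6 h. The 3 groups did not overlap, with 3 h highest, 6 h between and 0 h lowest. With 141 reads at 3 h and 13 at 0 h in all, the ratio of scaled reads was 12.4, with an exact 95% binomial interval of 7.03 to 23.9 that covers counting error alone. The fitted log2 fold change was 3.60 (SE 0.292, edgeR adjusted p = 9.51e-08).

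At 6 h against 0 h, the log2 fold change of DUSP5 was 1.33 (SE 0.4, edgeR adjusted p = 0.00872), with a ratio of scaled reads of 2.56 (interval 1.28 to 5.41). Between 6 h and 3 h, the log2 fold change was -2.26 (SE 0.256, adjusted p = 1.17e-05). Of the difference from 0 h seen at 3 h, 13.6% remained at 6 h. The DUSP5 pseudogene DUSP5P1 had 1 read over all libraries and DUSP5P2 had 0.

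DUSP1 moved the opposite way. DUSP1 (ENSG00000120129, chromosome 5), the stress-inducible nuclear phosphatase of p38, JNK and ERK, had 1.66, 1.82 and 1.72 CPM at 0 h, 0.836, 0.705 and 0.694 CPM at 3 h, and 0.659, 0.525 and 0.554 CPM at 6 h. The untreated libraries lay well above all treated ones, and the 6 h libraries lay below the 3 h libraries. The log2 fold change was -1.22 at 3 h (SE 0.152, edgeR adjusted p = 7.06e-06) and -1.58 at 6 h (SE 0.161, adjusted p = 8.14e-07). The further step between 6 h and 3 h, -0.36 (SE 0.187), did not pass (adjusted p = 0.164).

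The promoters of DUSP1 and DUSP2, phosphatases of the same nuclear class that moved in opposite directions, are shown because they differ in the binding motifs they hold. Both windows run from 250 bases before to 50 bases after the RefSeq transcription start in GRCh38.p14 and are printed 5′ to 3′ on the minus strand, which is the strand of the genes. The motifs searched on both strands were the cAMP response element TGACGTCA (CRE), its core TGACG, the E-box CACGTG to which MYC and MAX can bind, the AP-1 site TGANTCA, the TCF/LEF core CTTTGNT and the ETS core CCGGAA. Capitals mark every match, and the CRE contains its core on both strands. A match describes the letters and shows no binding.
DUSP1 promoter, chr5:172771146-172771445: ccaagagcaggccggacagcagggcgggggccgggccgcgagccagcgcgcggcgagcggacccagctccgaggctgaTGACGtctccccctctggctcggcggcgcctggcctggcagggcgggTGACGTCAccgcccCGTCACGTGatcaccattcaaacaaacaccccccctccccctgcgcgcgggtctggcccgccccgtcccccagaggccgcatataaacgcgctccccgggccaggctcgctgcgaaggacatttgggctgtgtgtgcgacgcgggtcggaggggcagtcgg
DUSP2 promoter, chr2:96145391-96145690: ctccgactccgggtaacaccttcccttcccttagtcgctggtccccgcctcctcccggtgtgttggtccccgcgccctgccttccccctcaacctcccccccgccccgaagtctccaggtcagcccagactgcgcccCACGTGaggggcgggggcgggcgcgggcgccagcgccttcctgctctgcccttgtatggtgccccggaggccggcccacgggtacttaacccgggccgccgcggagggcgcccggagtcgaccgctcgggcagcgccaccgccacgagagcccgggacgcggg

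The DUSP1 window held the full CRE, which began 125 bases before the start and which 1.85% of all 35116 promoter windows of this length hold. It held the CRE core at 4 positions, 2 of them within the CRE, and 24.6% of windows hold at least 1 such core. An E-box lay in each window, 108 bases before the start in DUSP1 and 113 bases before it in DUSP2, and 7.26% of windows hold one. The E-box of DUSP1 overlaps a CRE core. No AP-1, TCF/LEF or ETS core was in either window, against 7.71%, 15.4% and 17.2% of all windows.

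DUSP6, the cytoplasmic phosphatase that acts on ERK and is a common readout of ERK activity in other cell types, was close to the detection limit. It had 13, 7 and 7 reads at 0 h, 5, 6 and 8 at 3 h, and 10, 10 and 9 at 6 h. Both treated groups overlapped the untreated libraries, and the 6 h libraries, at 0.208 to 0.219 CPM, lay above the 3 h libraries, at 0.107 to 0.163 CPM. The ratio of scaled reads was 0.806 at 3 h (exact 95% binomial interval 0.424 to 1.5) and 1.33 at 6 h (0.758 to 2.33), so no change was detectable within these bounds at this depth.

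The phosphatases that act on JNK and p38 did not move together. DUSP10 (ENSG00000143507, chromosome 1), which acts on p38 and JNK in nucleus and cytoplasm, had 2.97, 3.10 and 3.32 CPM at 0 h, 1.31, 1.25 and 1.18 CPM at 3 h, and 0.893, 1.55 and 1.34 CPM at 6 h. All treated libraries lay below all untreated ones, while the 3 h and 6 h libraries overlapped. The log2 fold change was -1.32 at 3 h (SE 0.155, edgeR adjusted p = 4.03e-06) and -1.31 at 6 h (SE 0.157, adjusted p = 4.18e-06), and 0.01 between 6 h and 3 h (SE 0.181, adjusted p = 0.965).

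DUSP16 (ENSG00000111266, chromosome 12), a phosphatase that prefers JNK, had 0.787, 0.860 and 0.519 CPM at 0 h, 0.987, 0.685 and 0.572 CPM at 3 h, and 0.723, 1.47 and 0.969 CPM at 6 h. The 3 groups overlapped, and replicate 10 of 6 h was the highest library. Its log2 fold change was 0.04 at 3 h (SE 0.296, edgeR adjusted p = 0.914) and 0.54 at 6 h (SE 0.283, adjusted p = 0.107). The 6 h value passed without 6 h replicate 9 (0.75, adjusted p = 0.0293) and with no filter on low counts (0.55, adjusted p = 0.0297), and was 0.22 without 6 h replicate 10 (adjusted p = 0.511).

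Of the RAS inhibitors, the gene of the Sprouty family fell steeply from a low level. It reached the minimum count in all libraries at 0 h alone, but also in 3 h replicates 5 and 7 and 6 h replicate 11. Its treated counts were low, at 7 to 14 reads per library. It was also tested between 6 h and 3 h with only the 2 groups compared. SPRY1 (ENSG00000164056, chromosome 4), which restrains receptor signalling to RAS, had 1.45, 1.22 and 1.30 CPM at 0 h, 0.300, 0.137 and 0.286 CPM at 3 h, and 0.170, 0.175 and 0.323 CPM at 6 h. Every treated library lay below every untreated one, and the treated groups overlapped each other. The log2 fold change was -2.46 at 3 h (SE 0.264, edgeR adjusted p = 1.64e-06) and -2.57 at 6 h (SE 0.273, adjusted p = 1.2e-06), or 5.49-fold and 5.93-fold lower. Read sums were 35 at 3 h and 222 at 0 h, a ratio of 0.181 with a counting interval of 0.123 to 0.259.

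SPRED2 fell by a smaller factor than SPRY1, from a far higher level. SPRED2 (ENSG00000198369, chromosome 2), which brings neurofibromin to RAS, had 117, 114 and 106 CPM at 0 h, 79.0, 74.8 and 74.8 CPM at 3 h, and 80.9, 79.9 and 79.6 CPM at 6 h. All treated libraries lay below all untreated ones, and the 6 h libraries lay slightly above the 3 h libraries. The log2 fold change was -0.56 at 3 h (SE 0.0508, edgeR adjusted p = 3e-07) and -0.49 at 6 h (SE 0.0508, adjusted p = 1.02e-06), or 1.47-fold and 1.40-fold lower, and the step between 6 h and 3 h of 0.07 (SE 0.051) did not pass (adjusted p = 0.273). The fall went past a minimum fold of 1.2 at both times (adjusted p = 2.22e-05 and 0.000198).

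SPRED1, the close relative of SPRED2, had 6, 6 and 6 reads at 0 h, 6, 4 and 12 at 3 h, and 6, 10 and 3 at 6 h. The groups overlapped at all times, and the ratio of scaled reads was 1.40 at 3 h (exact 95% binomial interval 0.717 to 2.77) and 1.30 at 6 h (0.647 to 2.63). With no filter on low counts, DUSP4, DUSP6 and SPRED1 did not pass in any comparison (edgeR adjusted p from 0.365 to 1).

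The upstream SPRED2 promoter is shown as that of the most abundant feedback gene in untreated cells, at chr2:65432550-65432849 of GRCh38.p14 on the minus strand, with matches to the same motifs in capitals.
SPRED2 promoter: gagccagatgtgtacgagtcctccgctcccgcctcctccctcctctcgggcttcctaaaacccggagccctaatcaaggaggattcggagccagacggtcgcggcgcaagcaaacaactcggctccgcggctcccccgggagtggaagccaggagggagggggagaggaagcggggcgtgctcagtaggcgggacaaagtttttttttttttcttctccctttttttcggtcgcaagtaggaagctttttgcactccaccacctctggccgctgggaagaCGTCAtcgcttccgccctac
This window held 1 CRE core, past the transcription start, and no E-box. Promoter windows were examined for 8 of the 10 genes. DUSP4 was left out of this search, and DUSP5 had no entry. Those of DUSP6, DUSP16 and SPRED1 held none of the motifs searched. SPRY1 held an ETS core 67 bases before its start, and DUSP10 held a CRE core at the downstream of its starts. The second, downstream start of SPRED2 had 2 AP-1 matches in its window. Of the 4 genes that fell, DUSP1, DUSP10 and SPRED2 held a CRE core in at least 1 window and SPRY1 did not. Over all genes, 28.4% held this core in at least 1 window. DUSP10, SPRED2 and SPRY1 had more than 1 window each. Of the genes that rose, DUSP2 held no CRE core and DUSP5 had no promoter to compare. The part of these motifs in the changes was not tested.

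**Figure D3:**
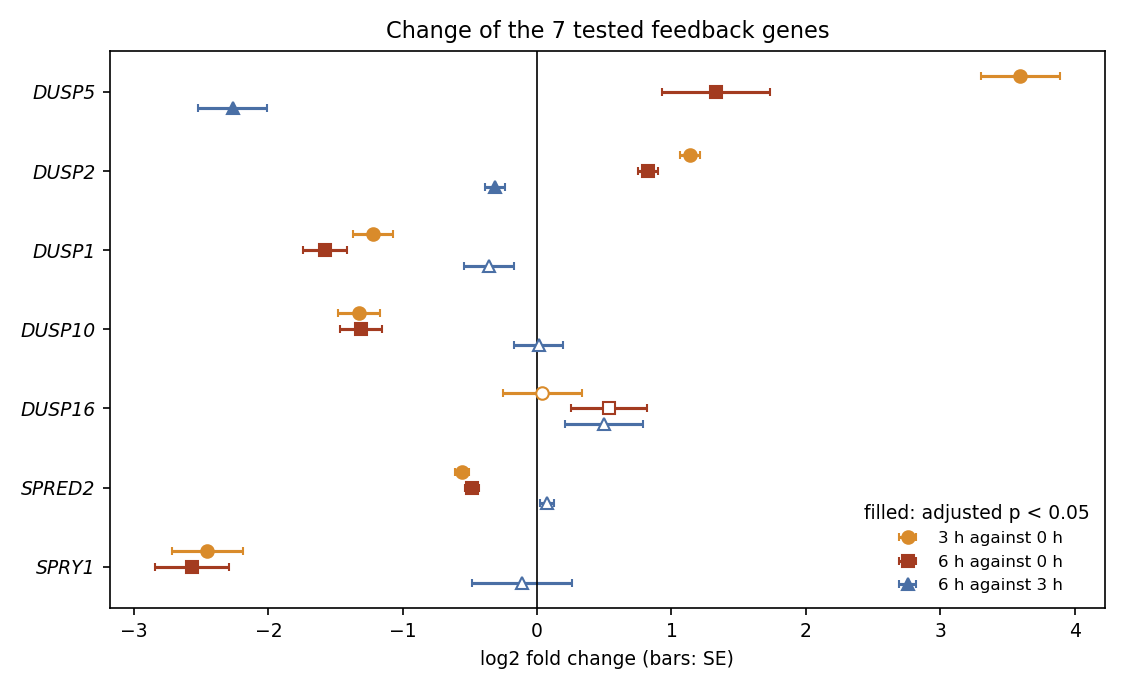
Log2 fold changes of the 7 tested feedback genes in 3 comparisons (horizontal axis, bars are SE), with filled symbols for an adjusted p under 0.05. DUSP5 lies farthest to the right at 3 h (3.60) and SPRY1 farthest to the left at 6 h (-2.57), and of the differences between 6 h and 3 h only those of DUSP5 (-2.26) and DUSP2 (-0.31) pass.

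Between 6 h and 3 h, then, DUSP5 and DUSP2 fell and none of the 7 tested genes rose. Over all genes tested, 21.9% were called lower and 21.5% higher in this comparison, 43.4% in all. The libraries of 6 h and 3 h did not overlap for DUSP1, DUSP2, DUSP5 and SPRED2, as was so for 55.2% of all genes tested. For the genes that fell, the difference from 0 h at 6 h was 117% of that at 3 h for DUSP1, 99.3% for DUSP10, 102% for SPRY1 and 89.1% for SPRED2.

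Genes with the most similar course over the 9 libraries were sought for the feedback genes that passed over the 3 times and averaged at least 1 CPM. These were DUSP1, DUSP2, DUSP10 and SPRED2, so DUSP5 and SPRY1 were left out. Likeness was the Pearson correlation of log2 CPM, over all genes with a symbol and a mean of at least 1 CPM. For DUSP2 the most similar genes were CHPF (r = 0.997), the beta-catenin destruction scaffold AXIN1 (r = 0.996) and BCL7B (r = 0.996). CHPF averaged 35.2 CPM at 0 h, 86.3 at 3 h and 68.7 at 6 h. For SPRED2 they were MYORG (r = 0.999), BCL2L13 (r = 0.996) and NIPAL3 (r = 0.996), for DUSP1 SNX20, MARS1 and CPNE1 (r = 0.996, 0.996 and 0.995), and for DUSP10 INO80D-AS1, LINC00910 and TTC30B (r = 0.991, 0.989 and 0.983). The libraries form 3 groups by time, so such values mainly describe the 3 group means, and 194 to 879 genes had an r over 0.95 with each of these feedback genes.

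The remaining members of the phosphatase and Sprouty families were mostly at or near 0. Of DUSP7, DUSP8, DUSP9, SPRY2, SPRY3, SPRY4 and SPRED3, DUSP7 alone had enough reads to be tested. DUSP7, a cytoplasmic phosphatase of ERK like DUSP6, averaged 24.5 ± 1.31 CPM at 0 h, 47.5 ± 1.64 at 3 h and 40.0 ± 1.92 at 6 h (SD, n = 3). Against 0 h it was 0.95 higher on the log2 scale at 3 h (SE 0.058, edgeR adjusted p = 5.32e-09) and 0.71 higher at 6 h (SE 0.058, adjusted p = 8.53e-08). It rose and then fell in part between 6 h and 3 h (-0.25, SE 0.057, adjusted p = 0.00323), and, as for DUSP2, this fall did not pass with a minimum fold of 1.2. SPRY2, SPRY3 and SPRY4 averaged 0 CPM at each time.

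The small atypical phosphatases, which lack the MAPK-docking domain, numbered 7 among the genes tested. Of these, 3 rose and 3 fell at 3 h, where 66.3% of all genes were called, and 3 rose and 4 fell at 6 h, where 70.8% were called, with medians of -0.18 and -0.23 against -0.01 and 0.02 over all genes. DUSP19 fell to 1.86 ± 0.121 CPM at 3 h, against 5.88 ± 0.690 at 0 h (log2 fold change -1.66). DUSP22, the most abundant of them by reads, had 180 ± 2.27 CPM at 3 h and 265 ± 3.95 at 0 h (-0.56), and -0.85 at 6 h. DUSP11, a phosphatase of RNA, and DUSP28 were 1.33-fold and 1.42-fold higher at 3 h. With scaling by upper quartile or by library size alone, 1 of the 7 was higher at 6 h instead of 3.

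Of 17 tested regulators of RAS and receptor adaptors, 11 fell and 2 rose at 3 h, with a median log2 fold change of -0.56, where 33.5% of all genes tested fell and 32.8% rose. At 6 h 11 fell and 2 rose, with a median of -0.43, where 35% of all genes fell and 35.7% rose. The difference from all genes was not tested. The adaptor GAB1 had 41.2 ± 2.04 CPM at 3 h against 124 ± 16.2 at 0 h (-1.59). The RAS exchange factors RASGRP3 and RASGRP1, which respond to diacylglycerol downstream of the B cell receptor, were 2.09-fold and 2.12-fold lower at 3 h. RASGRP1 was 1.29-fold lower at 6 h and RASGRP3 2.27-fold lower. The exchange factor SOS2 was 2.56-fold lower at 6 h, and the adaptor SHC1 was 1.76-fold higher at 3 h. NF1, which encodes neurofibromin, the partner of SPRED proteins, was picked after its values were seen: it fell along with SPRED2, to 47.9 ± 3.3 CPM at 3 h against 85.8 ± 17.4 at 0 h (-0.84, SE 0.14, edgeR adjusted p = 0.000395). Without 3 h replicate 6, with a minimum fold of 1.2, and with scaling by upper quartile or by library size alone, 1 of these genes was higher at 3 h instead of 2.

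Genes of the ERK cascade itself changed by less than 2-fold at 3 h. At 6 h, 1 of them was called at least 2-fold lower and 0 at least 2-fold higher. Of 16 genes of RAS, RAF, MEK, ERK and their scaffolds, 9 rose and 4 fell at 3 h and 9 rose and 6 fell at 6 h, with medians of 0.21 and 0.41. Over all genes tested, 32.8% rose and 33.5% fell at 3 h, and 35.7% rose and 35% fell at 6 h, and these shares are also those to set beside the counts of the lists that follow. NRAS was 1.53-fold higher at 3 h, ARAF 1.46-fold and the MEK scaffold LAMTOR3 1.68-fold. MAPK3, which encodes ERK1, was 1.58-fold lower at 6 h. Of 14 tested genes of the JNK and p38 cascades, 6 rose and 6 fell at 3 h and 4 rose and 8 fell at 6 h, with medians of -0.18 and -0.24. The p38 delta gene MAPK13 had 16.5 ± 0.544 CPM at 6 h against 45.7 ± 1.21 at 0 h (-1.47), and MAPK11, p38 beta, was 2.09-fold lower at 6 h, whereas MAP3K4 was 1.52-fold higher at 3 h. With scaling by library size alone, 3 of these genes were higher at 3 h and 1 at 6 h, and with upper-quartile factors 3 and 2.

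Of 16 kinases and factors that ERK and p38 act on, 9 rose and 5 fell at 3 h and 10 rose and 5 fell at 6 h, with medians of 0.21 and 0.26. The transcription factor SRF was 2.03-fold higher at 3 h and 1.32-fold higher at 6 h. RPS6KA2, a ribosomal S6 kinase, fell to 11.1 ± 0.965 CPM at 6 h, against 55.0 ± 5.09 at 0 h (-2.30), and the p38 substrate kinase MAPKAPK2 was 1.60-fold lower. With scaling by library size alone, 5 of these genes were higher at 3 h and 5 at 6 h, and with upper-quartile factors 5 at 3 h.

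Transcripts known to rise with ERK activity gave no single direction. Of 20 listed, 10 had enough reads to be tested, of which 4 rose and 2 fell at 3 h and 2 rose and 4 fell at 6 h, with medians of 0.26 and -0.14. JUNB was 1.62-fold higher at 3 h and PHLDA1 1.73-fold, and PHLDA1 reached 3.63-fold at 6 h. IER2 and FOSB were 1.52-fold and 1.66-fold lower at 6 h, and NR4A1, the orphan nuclear receptor, was 1.36-fold lower at 3 h. The number that fell at 3 h was 1 without 0 h replicates 1 or 2 or 3 h replicates 6 or 7, with DESeq2 and with a minimum fold of 1.2. The number that rose at 6 h was 1 without 0 h replicates 1 or 2, 3 h replicate 5 or any of the 6 h replicates, and also with scaling by upper quartile or library size alone, a minimum fold of 1.2 or only the 2 groups compared.

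**Figure D4:**
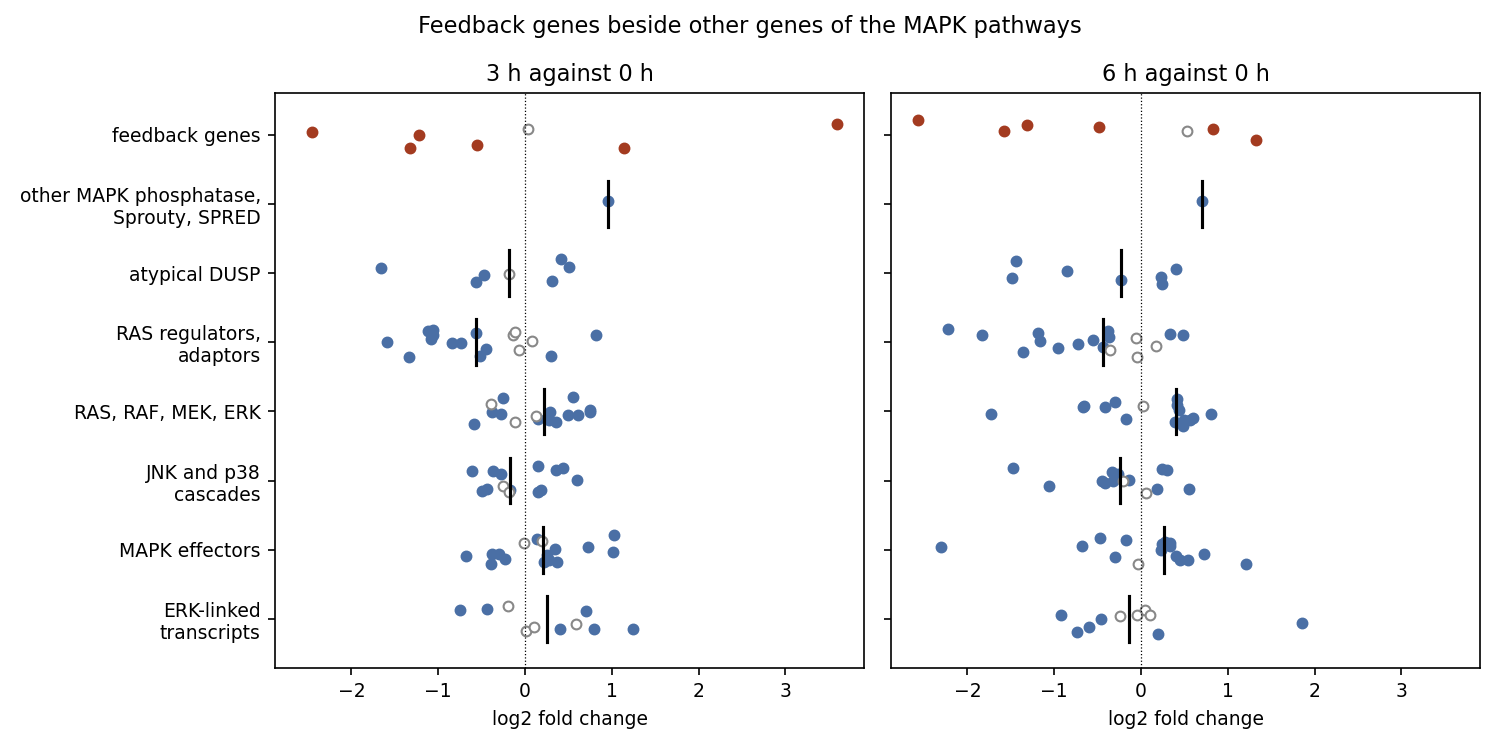
Log2 fold changes at 3 h (left) and 6 h (right) against 0 h of the 7 tested feedback genes and of the tested genes of 7 other lists of the MAPK pathways, with filled points for an adjusted p under 0.05 and black lines for list medians. The feedback genes run from -2.46 to 3.60 at 3 h, and the RAS regulators have the lowest median of the other lists, -0.56 at 3 h and -0.43 at 6 h.

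These directions are relative to the scaling by TMM factors. With scaling by library size alone, the median of all genes was -0.22 at both times and 31.8% of the genes called at 3 h were higher, against 49.5% with TMM factors. At 6 h these shares were 32.8% and 50.5%, and upper-quartile factors gave 36.0% at 3 h and 39.2% at 6 h. The 6 feedback genes called at 3 h and at 6 h against 0 h kept their direction and their call under both scalings.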

How the data were processed

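The deposited table holds raw counts for 9 libraries, 1 row per Ensembl gene. The submitters' processing notes name GSNAP, HTSeq 0.6.0, limma 3.30.0 and the build hg19. Annotation release, strand setting and counting mode are not given in the sources used here; overlapping and antisense genes are therefore uncertain. In GENCODE v29 the exons of DUSP6 alone among the feedback genes overlap another gene. The 5 HTSeq summary entries (29.1% to 32.4% of reads) were set aside.

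Tests used edgeR 4.0.16 in R 4.3.3. The filter on low counts was filterByExpr, with a minimum count of 10 and a minimum total of 15. Libraries were scaled by TMM factors, and 1 quasi-likelihood fit (robust) over all 9 libraries gave each group its mean. Tests were two-sided, with Benjamini-Hochberg adjustment over 15847 genes and a threshold of 0.05. The SE is the log2 fold change divided by the square root of F. CPM are on the TMM-scaled library size, apart from the floors, which use the reads in genes without TMM factors. Lengths came from GENCODE v29 (GRCh38), matched by identifier, and promoters from RefSeq (GRCh38.p14). Intervals and floors (3 counts) cover counting error alone. The procedure was also run on simulated data in which few genes changed, in equal numbers up and down. That setting cannot test the scaling where most genes are called, as here.

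The genes, lists and tests were chosen with earlier results of these data known. All 10 feedback genes are named; of each other list, up to 4 genes with the smallest p against 0 h could be named, and the text gives a part of these. DUSP14 had no match. Alternatives tried were other scalings, no filter, DESeq2 1.42.0, voom in limma 3.58.1, a minimum fold of 1.2, only the 2 groups compared, the longest transcript as length, and leaving out each library.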

Additional observations from a re-analysis of the deposited data

How the results depend on the processing

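Of 102 recounts of the feedback genes called higher or lower under the alternatives, 98 gave the same number. At 6 h against 0 h, 1 gene was higher with only the 2 groups compared, where DUSP5 fell under the filter on low counts and was not tested, against 2 otherwise. Between 6 h and 3 h, 1 gene was lower with a minimum fold of 1.2, against 2. Over leaving out each library, the number higher at 6 h against 0 h ran from 2 to 3. With lengths of the longest transcript, 6 of 10 genes kept their place in the order of levels at 6 h. The cause was not tested unless given.

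Values that changed sign were all of genes that did not pass. DUSP16 at 3 h against 0 h was -0.11 with upper-quartile factors and -0.16 with library size alone, and -0.20 to 0.20 over leaving out each library. DUSP10 between 6 h and 3 h was -0.020 with library size alone, -0.025 with limma-voom and -0.0019 with only the 2 groups compared, and -0.17 to 0.22 over leaving out each library. SPRY1 between 6 h and 3 h was -0.46 to 0.069 over leaving out each library. DUSP5 at 6 h against 0 h kept its call under the 16 alternatives in which it was tested, with adjusted p from 0.00603 to 0.0371. The groups share no replicate numbers and the labels do not say whether replicates were paired between times, so no paired analysis was made. Depth limits DUSP4, DUSP6 and SPRED1, with at most 29 reads per group. It also limits DUSP5, with 13 reads at 0 h and 27 at 6 h, and SPRY1, with 35 at 3 h and 30 at 6 h.

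A minimum fold of 1.2, a stricter call by construction, lowered list counts at 6 h against 0 h to 3 fallen ERK cascade genes instead of 6, 1 risen and 4 fallen JNK and p38 genes instead of 4 and 8, 1 risen atypical phosphatase instead of 3, and 5 risen and 3 fallen MAPK effectors instead of 10 and 5. At 3 h against 0 h it left 1 fallen ERK cascade gene instead of 4, 2 risen JNK and p38 genes instead of 6, and 5 risen and 3 fallen effectors instead of 9 and 5.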
